A study of Mus musculus with 32 samples.

Results

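RADICL-seq joins RNA to nearby DNA in fixed nuclei by way of an adapter, and a read holds a tag of the RNA and a tag of the DNA. The contacts described here are those that were listed after protein removal (NPM, non-protein-mediated) in mESC and mOPC. The mESC are the male mouse embryonic stem cell line R08, grown without feeder cells in serum with leukemia inhibitory factor. The mOPC are the mouse line Oli-neu, derived from oligodendrocyte progenitor cells and grown with PDGF-BB, bFGF and thyroid hormones. Cells of both lines were fixed with 1% formaldehyde before their nuclei were isolated, and the crosslinks were reversed with proteinase K before the RNA was ligated to the adapter, so that DNA ligation took place in solution. Each line had 2 NPM libraries, made from batches of cells of different passage number. The 1FA libraries (the same fixation with proteins kept, 3 for each line) stand beside them as reference values. Each group is 1 cell line, so that a difference between the groups is a difference between these 2 lines and cannot be told apart from their culture media.

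All listed interactions of the 4 NPM libraries were members, and 1 interaction was 1 distinct combination of RNA tag, DNA tag and RNA gene. There were 3506623 of them among 25231081 in the 15 libraries of the series. The mESC NPM libraries held 434610 and 608994 interactions and the mOPC NPM libraries 1272653 and 1190366. Only interactions of a transcript with a 25-kb DNA bin that passed the authors' significance test are listed. Pairs found in both libraries of a line carried the same p-value of that test in 100% of cases, as a test over pooled replicates would give, so the 2 libraries of a line appear to share 1 list of pairs and their spread may understate that of separately called libraries. The totals are therefore not sequencing depths, and a transcript listed at 0 in a line may still have been captured there.

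RNA can stay on the DNA it was copied from, base-paired behind the polymerase in an R-loop or joined to it by the transcription machinery, and a few abundant nuclear RNAs such as Malat1 also lie near genes of other chromosomes. Embryonic stem cells are known for a transcription network around Pou5f1, Nanog, Sox2 and Esrrb. Oligodendrocyte progenitors are known for Olig and SoxE factors, the proteoglycan Cspg4 and the receptor Pdgfra, and they mature into the cells that make myelin.

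The RNA positions that were contacted most in line-specific transcripts are shown as examples of single RNA positions. The windows below are from the mm10 genome, on the strand of the RNA, for the 3 transcripts with the most interactions among those listed in a single line. The capitals mark the 27 bases centred on the RNA tag position. In mOPC NPM, these were an intron position of Lhfpl3 (a membrane protein gene of the LHFPL family) at chr5:22809844-22809964 on the plus strand, an intron position of Sox6 (a transcription factor of glial and cartilage cells) at chr7:115645717-115645837 on the minus strand, and a coding position of Cntn1 (contactin-1, an axonal and glial adhesion protein) at chr15:92305016-92305136 on the plus strand.
Lhfpl3: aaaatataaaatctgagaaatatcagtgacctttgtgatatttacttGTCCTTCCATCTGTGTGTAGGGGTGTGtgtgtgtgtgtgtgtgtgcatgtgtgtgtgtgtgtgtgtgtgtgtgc
Sox6: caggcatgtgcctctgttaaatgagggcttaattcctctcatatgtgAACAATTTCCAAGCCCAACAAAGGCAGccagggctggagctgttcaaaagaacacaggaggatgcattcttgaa
Cntn1: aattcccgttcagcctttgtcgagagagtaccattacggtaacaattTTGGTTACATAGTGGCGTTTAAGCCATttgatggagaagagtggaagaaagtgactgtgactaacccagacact

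In mESC NPM, they were an intron position of Rbpms (an RNA-binding protein gene) at chr8:33799940-33800060 on the minus strand, an intron position of Meg3 (a maternally expressed imprinted noncoding RNA) at chr12:109547693-109547813 on the plus strand, and an exon position of Rian, of the same imprinted cluster, at chr12:109645852-109645972 on the plus strand. These 3 positions tied with others of their gene and the lowest coordinate was taken.
Rbpms: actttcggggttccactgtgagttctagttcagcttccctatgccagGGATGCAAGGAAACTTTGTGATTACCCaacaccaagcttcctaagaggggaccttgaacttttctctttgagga
Meg3: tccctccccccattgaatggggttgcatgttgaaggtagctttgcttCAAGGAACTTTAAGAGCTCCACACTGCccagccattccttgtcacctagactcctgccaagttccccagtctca
Rian: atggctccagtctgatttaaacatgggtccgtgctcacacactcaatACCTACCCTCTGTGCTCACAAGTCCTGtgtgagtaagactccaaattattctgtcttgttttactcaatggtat

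At the 4 intron positions the DNA tags on the same chromosome lay at a median of -217 bp (Lhfpl3), -287 bp (Sox6), -346 bp (Rbpms) and -332 bp (Meg3) from the RNA tag. A negative distance is upstream along the direction of transcription. At the 2 exon positions they lay farther upstream, at a median of -10017.5 bp in Cntn1 and -8142 bp in Rian. These positions carried between 3 and 11 interactions each, since the interactions of a transcript are spread over many positions of its gene. The distances at the Lhfpl3 position ranged from -1835659 to 15624142 bp. Of the 11 interactions at the Cntn1 position, 10 came from mOPC NPM replicate 1.

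The comparison asks which RNAs were listed with a DNA tag in stem cells and in progenitors once proteins were removed. In all, 11679 transcripts were listed in mESC NPM, 14633 in mOPC NPM and 10519 in both. Of 11043 transcripts tested, 5668 (51.3%) passed at an adjusted p under 0.05, 3348 (30.3%) higher and 2320 (21.0%) lower in mOPC, by limma's moderated test on log2 CPM, interactions per 1000000 listed, with TMM scaling. Among the 5668, 1345 were listed at 0 in both mESC libraries and 311 at 0 in both mOPC libraries. The 4012 called transcripts listed in both lines split into 2003 higher and 2009 lower, with a median size of 1.58 on the log2 scale. In such bulk libraries, fewer contacts of a transcript per cell and fewer cells with the transcript cannot be told apart. The direction of the balance depends on scaling and on the libraries fitted. By CPM without TMM factors, 2674 were higher of 5925 called, and the median of all tested transcripts moved from 0.19 to -0.18 on the log2 scale. With all 15 libraries in 1 fit, 3270 were higher and 3425 lower, and with equal pooled numbers of interactions and pairs of at least 5, 2341 were higher and 2210 lower. With mOPC NPM replicate 1 or 2 left out, 8391 and 8465 transcripts could be tested. A transcript with 10 interactions in mOPC alone then no longer passed the filter described next, so that the balance of calls in these fits is partly set by it. The filter asked for 10 interactions in 2 libraries, which 3503 of the tested transcripts reached in both mOPC libraries but not in both mESC libraries and 822 the other way round. For a transcript that passed through the line where it is high, the direction was largely set by the filter. Of the 6524 transcripts with at least 10 interactions in all 4 libraries, 1188 were higher and 1568 lower.

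All 8 largest rises had fewer than 10 interactions in each mESC library, so that the filter admitted them through mOPC, where they are high, and their fitted sizes are given as a description without p. Among them, Pde4b, which codes for a cyclic AMP phosphodiesterase, had 11.5 and 3.28 CPM in mESC NPM and 1520 and 1400 in mOPC NPM, a log2 fold change of 8.09 ± 0.53 (SE). Ptprz1, a receptor tyrosine phosphatase of progenitors and glia, went from 11.5 and 3.28 CPM to 1445 and 1312. Npas3, a transcription factor of the nervous system, had 11.5 and 4.93 CPM in mESC NPM against 1554 and 1674. Both mOPC libraries lay far above both mESC libraries in each of these genes.

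The cell adhesion genes Lsamp and Negr1, of the same family of GPI-anchored neural proteins, rose by 7.76 ± 0.25 and 7.53 ± 0.73 on the log2 scale, from 6.9 and 9.85 CPM to 1747 and 1279 in Lsamp. Magi2, a synaptic scaffold, rose by 7.49 ± 0.38. The lincRNA 6030443J06Rik rose by 7.49 ± 0.22, from 9.2 and 13.1 CPM to 1675 and 1565, and Slc5a6, the sodium-dependent multivitamin transporter, by 7.44 ± 0.27. Magi2, 6030443J06Rik and Slc5a6 all lie on chromosome 5 between 19227036 and 31048924 bp, a stretch described further on. 6030443J06Rik and Lhfpl3 overlap on the plus strand between 22746059 and 22807850 bp, where reads cannot be told apart by strand.

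The 8 largest falls were led by a small nucleolar RNA. Of these 8 the filter admitted all but Bnc2 and Fn1 through mESC, where they are high, and their fitted sizes are likewise given without p. Snord13, a guide RNA of 104 bases that acts on ribosomal RNA, had 867 and 186 CPM in mESC NPM and 1.57 and 3.36 in mOPC NPM, a log2 fold change of -6.76 ± 0.80. The mESC libraries stood far apart in Snord13, and both stayed above the mOPC libraries. Esrrb, an orphan nuclear receptor of the pluripotency network, had 810 and 862 CPM against 7.07 and 9.24, a log2 fold change of -6.22 ± 0.22.

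The falls also held Col4a1 and Fn1. Col4a1, a collagen IV chain, fell by 6.38 ± 0.23 on the log2 scale, from 755 and 655 CPM to 7.07 and 5.04. Fn1 (fibronectin) fell by 5.35 ± 0.28, from 826 and 921 CPM to 12.6 and 20.2. The others were Cubn (cubilin, an endocytic receptor), Gcnt2 (a glycosyltransferase), Bnc2 (a zinc finger protein) and the lincRNA D030068K23Rik, with log2 fold changes of -5.48 to -6.53. All 16 were chosen among called transcripts whose groups do not overlap.

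**Figure D1:**
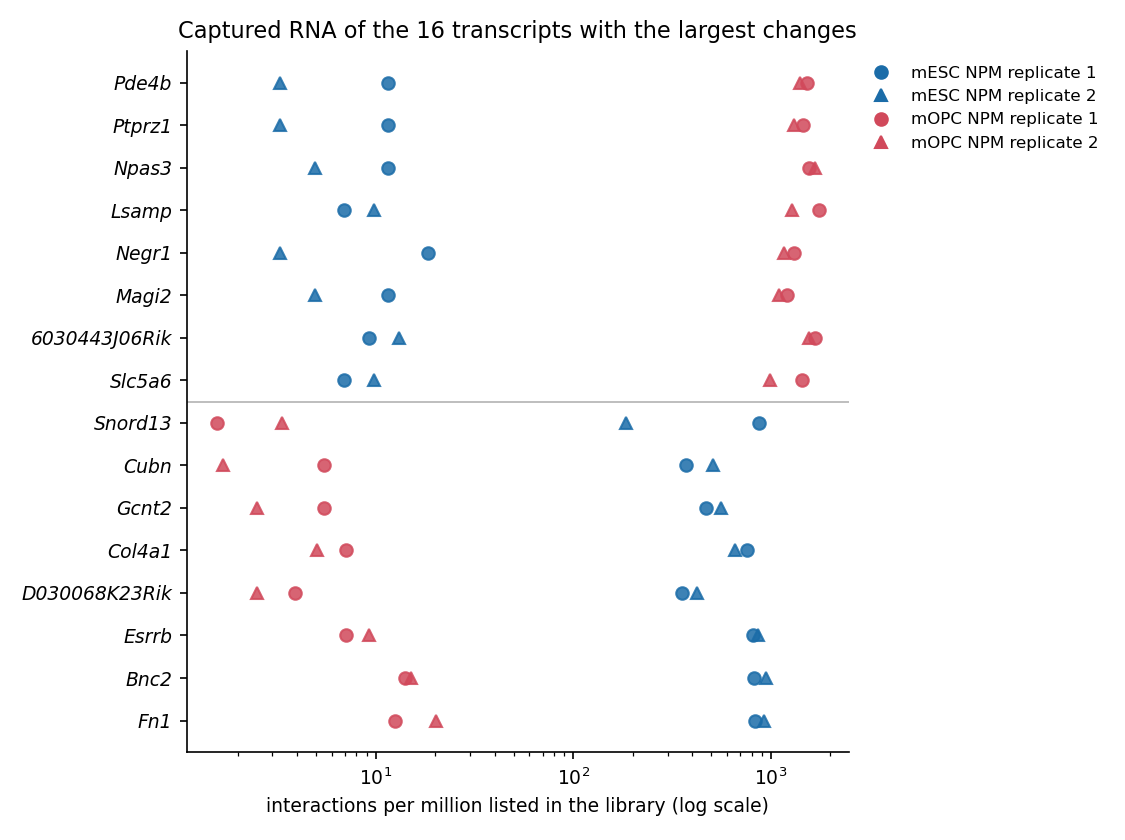
Interactions per 1000000 listed (CPM) in each NPM library (log axis) for the 8 largest rises, above the line, and the 8 largest falls among called transcripts with at least 1 interaction in every library. Blue points are mESC NPM, red points mOPC NPM, and circles and triangles mark replicates 1 and 2. Transcripts whose lines overlap were not eligible, and the 2 mESC libraries stand farthest apart in Negr1 (18.4 and 3.28 CPM) and Snord13 (867 and 186).

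Of the 6 transcripts with the most interactions among those listed in mOPC alone, 3 (Lhfpl3, Sox6, Cntn1) are in the progenitor list. Lhfpl3 was listed at 0 in both mESC libraries and had 9299 and 9022 interactions in mOPC NPM, which made it the third most captured transcript of that line. Sox6 had 4959 and 4594 interactions, Cntn1 3458 and 2613, and Nlgn1, which codes for the synaptic adhesion protein neuroligin-1, had 2838 and 2190. Nav3 (a neuron navigator) had 2502 and 2140 and Slc35f1 (a solute carrier) 1858 and 1824. For none of these 6 is a fold change given, since the mESC value is a listed 0.

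The transcripts listed in mESC alone carried fewer interactions. Rbpms had 500 and 969 interactions in mESC NPM and Cdh1, the epithelial cadherin of stem cell colonies, had 196 and 279. Meg3 (342 and 639) and Rian (182 and 372) come from 1 imprinted cluster on chromosome 12, as does Mirg (65 and 118). Lncenc1, a noncoding RNA of embryonic stem cells, had 171 and 318 interactions, and Pid1 190 and 269. All were listed at 0 in both mOPC libraries, by which they were chosen, and no fold change is given for them.

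Of 45 genes known from pluripotency, 39 were listed and 33 tested. Among those tested 32 were lower in mOPC, 0 were higher and 1 (Zfx) was not called, beside 30.3% higher and 21.0% lower over all transcripts, but 24 of them had at least 10 interactions in both mESC libraries and not in both mOPC libraries, so that the filter admitted them through the line where they are high. Of the 9 with at least 10 in all 4 libraries, 8 were lower, beside 1568 of 6524 over all. 20 of the 33 were listed at 0 in mOPC NPM. The summed level of the list was 8548 and 9376 CPM in mESC NPM against 585 and 631 in mOPC NPM. Jarid2, a subunit of a Polycomb complex, was among the 10 most captured transcripts of mESC NPM with 983 and 1761 interactions and had 261 and 251 in mOPC NPM, a log2 fold change of -3.24 ± 0.18 (adjusted p = 6.98e-05). Tfcp2l1 fell by 4.85 and Nr5a2 fell by 3.96 on the log2 scale. Pou5f1, which codes for OCT4, had 12 and 15 interactions in mESC NPM and was listed at 0 in mOPC. Nanog, with 6 and 10, was too low to be tested. Sox2, a factor of both stem and neural progenitor cells, had a log2 fold change of -2.21 ± 0.38. With mESC NPM replicate 1 or 2 left out, 11 of the genes could be tested and 10 were lower.

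Of 38 oligodendrocyte progenitor genes, 36 were listed and 32 tested. Among those tested 29 were higher, 1 was lower and 2 were not called, beside 30.3% higher and 21.0% lower over all transcripts. The filter admitted 25 of the 32 through mOPC alone, and 16 were listed at 0 in mESC NPM. Of the 7 with at least 10 interactions in all 4 libraries, 5 were higher, 1 lower and 1 not called, beside 1188 higher and 1568 lower of 6524 over all. The summed level of the list was 785 and 611 CPM in mESC NPM and 28739 and 26847 in mOPC NPM. Tnr (tenascin-R) had 21 and 8 interactions in mESC NPM and 3182 and 2774 in mOPC NPM, a log2 fold change of 6.91 ± 0.58. Cspg4, the NG2 proteoglycan, had 6 and 3 against 1276 and 647. Sox10 (473 and 364), Olig2 (147 and 101) and Olig1 (141 and 32), the lineage factors, were listed at 0 in mESC. With mOPC NPM replicate 1 or 2 left out, 9 of the genes could be tested and 7 were higher.

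The receptor gene Pdgfra went against the list. It had 30 and 40 interactions in mESC NPM and 48 and 29 in mOPC NPM, a log2 difference of -0.76 ± 0.28 (adjusted p = 0.0754, limma). By CPM without TMM factors it was -1.14 (adjusted p = 0.0279). Megf11 was lower in mOPC by 1.30 ± 0.17. Ncan was the other member not called, with a difference of 1.36 ± 0.65.

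Of 14 tested genes of myelin and maturation, 9 were higher, 1 lower and 4 not called, beside 30.3% higher and 21.0% lower over all transcripts. The filter admitted 8 of them through mOPC alone, and of the 5 with at least 10 interactions in all 4 libraries 2 were higher and 3 not called, beside 1188 of 6524 higher over all. Bcas1, a marker of oligodendrocytes that begin to myelinate, was listed at 0 in mESC and had 1688 and 1922 interactions in mOPC NPM. Mbp, which codes for myelin basic protein, had 6 and 1 interactions against 218 and 183, a log2 fold change of 5.19 ± 0.87. Mobp was listed at 0 in mOPC and Myrf was not called (-0.51 ± 0.28). With 1 mOPC library left out, 8 of the genes could be tested, of which 3 were higher without replicate 1 and 4 without replicate 2.

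Some markers of other cell types were listed as well, and their calls stand beside 30.3% higher and 21.0% lower over all transcripts. Of 5 neuron genes tested, 3 were higher (Map2, Syt1, Gad1) and 1 lower (Stmn2), at a summed 460 and 383 CPM in mESC NPM and 1215 and 1109 in mOPC NPM. Map2 had the largest part of this sum in mOPC NPM. Only 2 of the 5 had at least 10 interactions in all 4 libraries, 1 of them higher and 1 not called. Of 6 astrocyte genes, 3 were higher (Slc1a2, Aldoc, S100b) and 1 lower (Gja1), each of them listed at 0 in the other line and admitted by the filter through the line where it is high, and the 2 with at least 10 interactions in all 4 libraries were not called. The astrocyte list as a whole summed to 306 and 273 CPM in mESC NPM and 223 and 203 in mOPC NPM. Neither microglia gene tested was called, and Ptprc had 0 and 0 interactions in mESC NPM and 11 and 8 in mOPC NPM. No trophoblast gene passed the filter. All 4 endoderm genes tested (Lamb1, Dab2, Gata4, Gata6) were lower in mOPC, at a summed 815 and 936 CPM in mESC NPM against 36.9 and 40.3. The filter admitted 3 of these through mESC alone, and 1 had at least 10 interactions in all 4 libraries. Of the fibroblast or feeder list, Fn1 was lower and Vim higher, at a summed 895 and 954 CPM in mESC NPM, most of it Fn1, against 92.7 and 89.0. The part of cells of these types in the values was not tested.

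**Figure D2:**
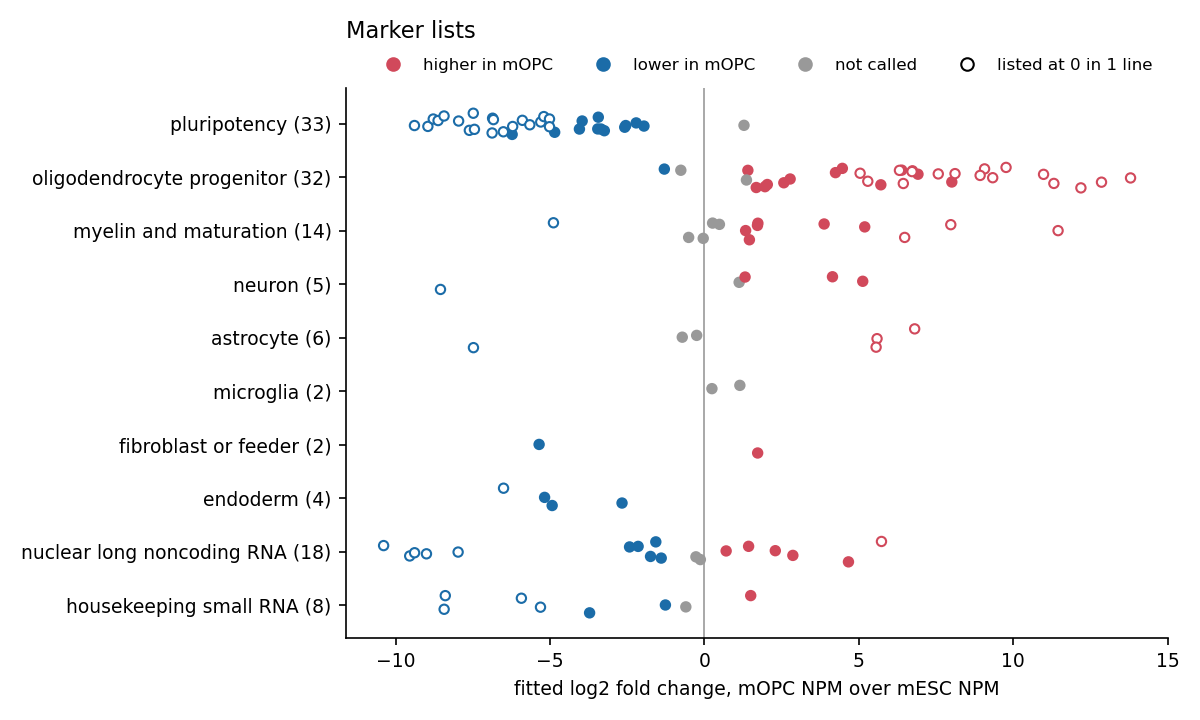
Fitted log2 fold change of mOPC NPM over mESC NPM for the tested members of each list (number in brackets). Red, blue and grey mark higher, lower and not called, and open circles mark genes listed at 0 in 1 line, whose fitted value depends on the prior count and has no scale. Pluripotency genes lie left of 0 except Zfx, and progenitor genes lie right of it except Megf11 and Pdgfra.

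Noncoding RNA made up a larger part of the contacts in mOPC NPM. The 1FA libraries had the same order of lines, with long noncoding RNA at 3.55 to 4.73% in mESC and 15.9 to 17.9% in mOPC. Long noncoding RNA accounted for 4.21% and 3.94% of interactions in the mESC NPM libraries and 10.96% and 13.46% in the mOPC NPM libraries, and the groups did not overlap. The difference of 8.13 percentage points had an exact two-sided permutation p of 0.3333, the smallest that 2 against 2 libraries can give, and this holds for each of the 19 shares compared that did not overlap (adjusted p = 0.528). Protein-coding RNA took 93.11% and 95.02% in mESC NPM and 88.27% and 85.07% in mOPC NPM. Malat1, an abundant RNA of nuclear speckles, accounted for much of this: without it the difference in long noncoding RNA was 4.24 points.

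Malat1 was the most captured transcript of both lines. It had 16129 and 13404 CPM in mESC NPM and 43487 and 70969 in mOPC NPM, a log2 fold change of 2.29 ± 0.46 (adjusted p = 0.0116). Neat1, the scaffold RNA of paraspeckles, was the second in mOPC NPM with 18164 and 16198 CPM. In mESC NPM it had 879 and 878, a log2 fold change of 4.66 ± 0.19 (adjusted p = 1.69e-05). The order of the lines was the same in every library for both RNAs.

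Of 18 nuclear long noncoding RNAs tested, 6 (a share near the 30.3% over all transcripts) were higher and 10 lower in mOPC, beside 21.0% lower over all. Of the 10 with at least 10 interactions in all 4 libraries, 5 were higher, 3 lower and 2 not called, beside 1188 higher and 1568 lower of 6524 over all. Besides Malat1 and Neat1, Pvt1 (1947 and 2534 CPM against 4539 and 4681), Kcnq1ot1, Sox2ot and Peg13 were higher. Kcnq1ot1, an antisense RNA of an imprinted domain, rose by 0.70 ± 0.15, but by CPM without TMM factors the difference was 0.32 (adjusted p = 0.0769, limma). Tsix, the antisense partner of Xist, had 143 and 223 interactions in mESC NPM and was listed at 0 in mOPC. Airn, of the imprinted Igf2r domain, fell by 2.15 ± 0.29 and Firre, an X-linked RNA, by 1.40 ± 0.17. A pair of lincRNAs were among the most captured of mOPC NPM: 2610035D17Rik at 4497 and 4861 CPM and 5031425E22Rik at 3174 and 2781, with log2 fold changes of 5.44 ± 0.16 and 5.11 ± 0.19. The part of transcription of the gene in these values was not tested.

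Of 44 small nucleolar RNAs tested, 29 were lower and 0 higher, whereas 15 were not called, beside 30.3% higher and 21.0% lower over all transcripts. Of the 23 with at least 10 interactions in all 4 libraries, 14 were lower and 9 not called, beside 1568 of 6524 lower over all. The filter admitted 19 of the 44 through mESC alone. Of 8 housekeeping small RNAs tested, 6 were lower, 1 higher and 1 (Rny3) not called. The filter admitted 4 of them through mESC alone, all listed at 0 in mOPC, and of the 4 with at least 10 interactions in all 4 libraries 2 were lower, 1 higher and 1 not called. Rnu3a, which codes for the U3 RNA that acts in ribosomal RNA processing, had 600 and 161 interactions in mESC NPM and 41 and 45 in mOPC NPM, a log2 fold change of -3.72 ± 0.76. Snord118, the U8 RNA, had 296 and 46 and was listed at 0 in mOPC. Rmrp, the RNA of the MRP ribonuclease, fell by 1.26 ± 0.32. Rn7sk, the 7SK RNA that holds back transcription elongation, went the other way and rose by 1.5 ± 0.24, with 109 and 112 interactions against 719 and 462. The mESC libraries themselves differed: noncoding RNA other than long noncoding RNA took 2.53% of interactions in replicate 1 and 0.876% in replicate 2, against 0.686% and 1.37% in mOPC NPM, so the groups overlapped in the share as a whole. Counting every line of the files gave 16 small nucleolar RNAs lower in place of 29.

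Where the captured RNA came from within genes was alike in the lines in part. Intron tags made up 63.6% and 69.2% of interactions in mESC NPM and 65.9% and 68.5% in mOPC NPM, which overlap. Coding sequence gave 20.7% and 16.8% in mESC NPM and 13.8% and 11.3% in mOPC NPM. Exons of noncoding transcripts gave 7.88% and 6.68% against 10.5% and 13.9%. Genes longer than 100 kb supplied 36.4% and 38.2% of interactions in mESC NPM and 44.9% and 44.4% in mOPC NPM. RNA tags in SINE repeats took 4.10% and 4.40% against 3.52% and 3.74%. DNA tags within 2 kb of an annotated gene start took 17.5% and 17.02% against 13.4% and 15.2%. In these last 5 shares the lines did not overlap. The difference for long genes was 7.38 points. In the 1FA libraries genes longer than 100 kb supplied 48.0 to 50.0% in mESC and 52.6 to 55.3% in mOPC. Coding sequence gave 4.78 to 6.48% in mESC 1FA and 2.62 to 3.62% in mOPC 1FA. DNA tags within 2 kb of a gene start took 11.9 to 13.4% in mESC 1FA and 12.4 to 13.8% in mOPC 1FA, which overlap.

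In both lines the DNA tag lay close to the RNA tag and on 1 side of it. Contacts within 1 kb made up 84.4% and 86.2% of interactions in mESC NPM and 87.9% and 86.5% in mOPC NPM, beside 3.73 to 6.99% in the 1FA libraries of the 2 lines. Contacts at 1 to 10 kb took 9.73% and 7.17% in mESC NPM and 6.25% and 5.596% in mOPC NPM. The DNA tag lay in the gene of the RNA in 95.8% and 94.6% against 95.5% and 93.0%. The difference within 1 kb, 1.93 points, turned to -0.970 without the ribosomal RNA gene bin described below.

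Within 1 kb, the DNA tag lay upstream of the RNA tag in 96.8% and 98.6% of mESC NPM and 98.0% and 98.6% of mOPC NPM interactions. In the 1FA libraries this share was 63.5 to 79.9%. The lines overlapped in it and the NPM and 1FA libraries did not. At 1 to 10 kb the DNA tag was upstream in 96.3 to 98.1% of NPM interactions and in 33.0 to 35.6% of 1FA interactions.

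**Figure D3:**
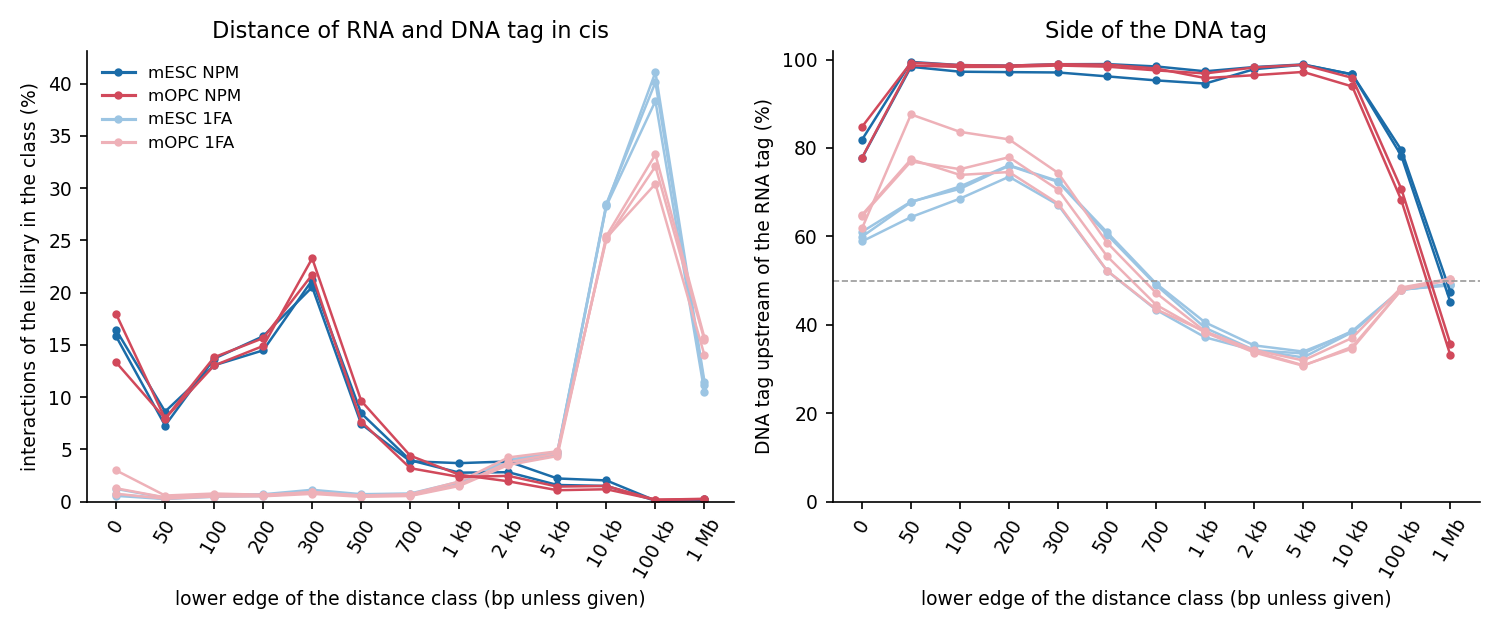
Left, percentage of each library's interactions by distance between RNA and DNA tag on the same chromosome; right, percentage of the interactions in each class whose DNA tag lies upstream of the RNA tag along the direction of transcription, with 50% dashed. Each line is 1 library, coloured by group. The 4 NPM libraries lie together, within 1 kb and upstream, and apart from the 6 1FA libraries, whose contacts lie mostly beyond 10 kb.

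Beyond 1 kb the NPM contacts of coding RNA followed the exons of the gene. For RNA tags in coding sequence with the DNA tag 1 to 10 kb away, the DNA tag lay in an exon of the same gene in 96.4% and 93.2% of mESC NPM and 95.3% and 90.1% of mOPC NPM interactions. In the 1FA libraries the share was 23.9 to 30.9%. Exons covered a mean of 14.9 to 15.2% of the bases 1 to 10 kb upstream of these NPM tags. Interactions with both tags in exons of the RNA's gene made up 31.7% and 26.2% of mESC NPM and 28.8% and 23.4% of mOPC NPM, and 1.25 to 2.17% of 1FA interactions. The lines overlapped in both shares.

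Where the 2 tags lay in different exons, their genomic distance had a median of 3047 and 2838 bp in mESC NPM and 2955 and 2688 bp in mOPC NPM. Counted along the exons alone, the median was 392 and 393 nt in mESC NPM and 399 and 400 nt in mOPC NPM, and 83.2 to 84.9% lay within 1 kb. In the 1FA libraries the median along the exons was 1644 to 2057 nt. Intron RNA tags of the NPM libraries lay at a median of 231 to 267 bp from their DNA tag. The DNA tag positions followed the order of the spliced exons in NPM libraries of both lines. A DNA tag is called so by its end of the adapter, and whether such tags were read from genomic DNA was not tested.

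Dst, which codes for the cytoskeletal linker dystonin, is an example that was chosen after its values were seen, as the coding gene with the most such interactions in all 4 libraries. It had 106 and 133 interactions between a coding RNA tag and an exon 1 to 10 kb away in mESC NPM, and 332 and 269 in mOPC NPM. The pair of exons listed together most often begins at 34227775 bp (RNA tag) and 34225509 bp (DNA tag) of chromosome 1, on the plus strand, and 31 interactions joined them at a median of 2172 bp in the genome and 402 nt along the exons. All 31 had the DNA tag upstream. The most frequent RNA tag position (chr1:34227819-34227899) and DNA tag position (chr1:34225816-34225896) of that pair are shown with 27 bases in capitals, on the plus strand of mm10.
Dst RNA tag: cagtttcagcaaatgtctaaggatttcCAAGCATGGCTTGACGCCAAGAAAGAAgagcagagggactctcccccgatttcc
Dst DNA tag: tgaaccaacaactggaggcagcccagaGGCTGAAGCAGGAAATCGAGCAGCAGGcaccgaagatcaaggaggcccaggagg

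Leaving out every interaction with both tags in exons of the gene left 4496 of 9219 tested transcripts called, 2589 higher and 1907 lower in mOPC.

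**Figure D4:**
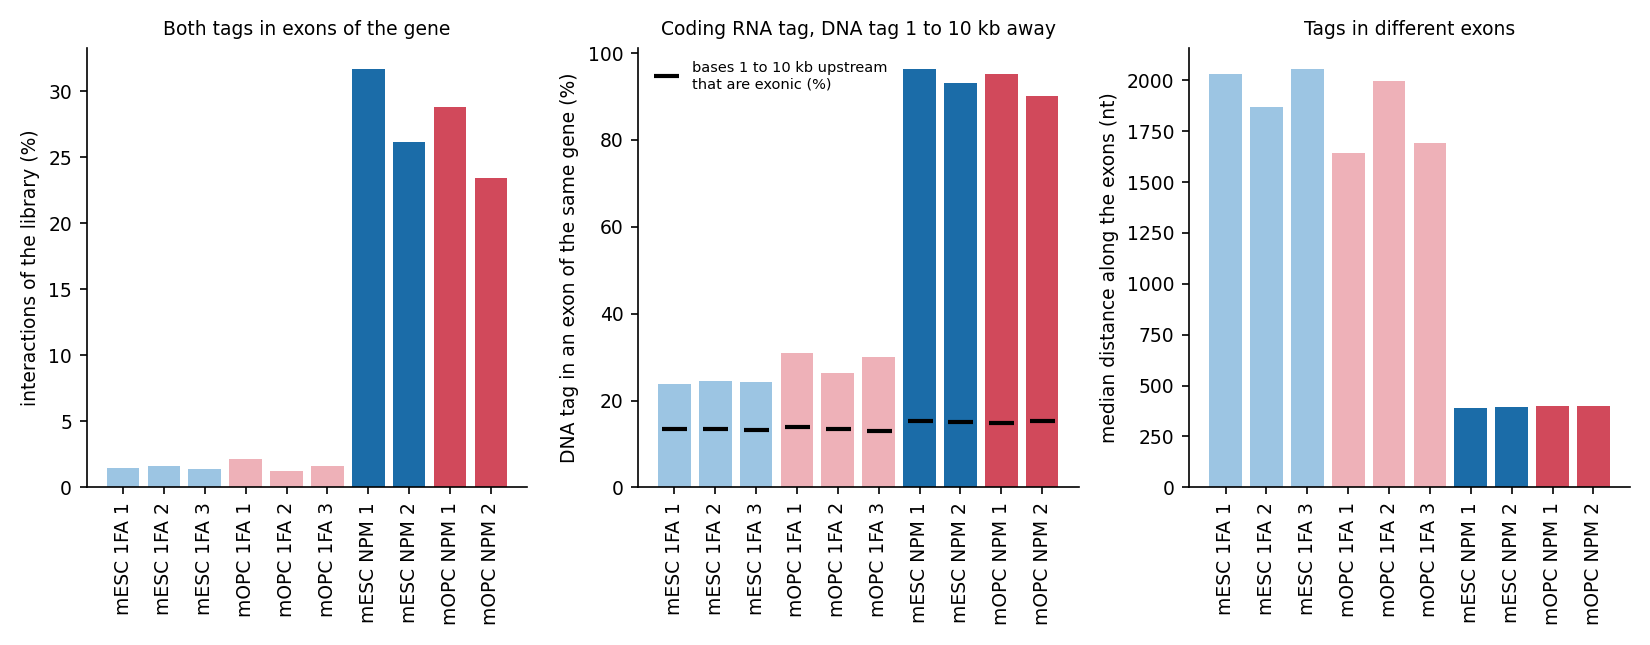
Exon structure of the contacts, 1 bar per library, with 1FA libraries in pale and NPM libraries in full colour (blue mESC, red mOPC). Left, interactions with both tags in exons of the RNA's gene; centre, coding RNA tags whose DNA tag lies 1 to 10 kb away in an exon of the gene, with the mean share of exonic bases in the upstream 1 to 10 kb as a black dash; right, median distance along the exons where the tags lie in different exons. NPM libraries of both lines stand at 90.1 to 96.4% in the centre panel and at 392 to 400 nt in the right panel, apart from all 1FA libraries.

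The DNA that received contacts was compared in bins of 25 kb. Of 25941 bins tested, 13089 (50.5%) were called, 8960 (34.5%) higher and 4129 (15.9%) lower in mOPC NPM. Of those called, 5549 were listed at 0 in both mESC libraries, and the 7016 listed in both lines split into 3411 higher and 3605 lower. The 5549 could pass the filter only through mOPC, where they are high. Without mOPC NPM replicate 1 the calls were 5352 (2266 higher, 3086 lower), and without replicate 2 they were 4942 (2044 higher, 2898 lower), so that the balance turned. Most of these contacts are of an RNA with its own gene. The bin of Malat1 at chr19:5775001-5800000 had 2102 and 3023 interactions in mESC NPM and 16484 and 16607 in mOPC NPM, and that of Neat1 at chr19:5825001-5850000 had 398 and 527 against 16871 and 13967. The lines shared 25270 pairs of a transcript and a bin, which is 82.2% of the 30730 pairs of mESC NPM and 56.3% of the 44892 of mOPC NPM.

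Before the authors' significance test, the study reported that most uniquely mapped NPM interactions of both lines joined different chromosomes. Listed contacts between chromosomes were few in both lines and went mostly to different DNA. They made up 3.61% and 4.87% of interactions in mESC NPM and 3.93% and 6.27% in mOPC NPM, which overlap, beside 5.44 to 6.73% in mESC 1FA and 11.3 to 13.3% in mOPC 1FA. Of 2609 such pairs of a transcript and a bin in mESC NPM and 4748 in mOPC NPM, 296 were shared, 11.3% and 6.23% of the lists. A shared pair needs the same transcript as well as the same bin. In mESC NPM, RNAs of 2068 genes were paired with 1 bin on chromosome 17, which also took contacts in mOPC NPM, so the overlap of pairs is not that of the DNA. Some DNA was common to both lines. The bin at chr11:3150001-3175000, over Sfi1, took 286 and 264 such contacts in mESC NPM and 1339 and 1538 in mOPC NPM. The next bin took 282 and 256 against 1185 and 1342. In mESC NPM, 1 bin took 69.7% and 89.6% of the contacts between chromosomes. It lies at chr17:39825001-39850000 and holds CT010467.1 and Gm26917, annotated over a copy of the ribosomal RNA gene. In mOPC NPM that bin took 5.32% and 6.37%. RNAs of 2000 and 2066 transcripts reached it in the mESC libraries and of 416 and 423 in the mOPC libraries. Among all contacts it was lower in mOPC, with a log2 fold change of -3.12 ± 0.48 (adjusted p = 0.00516). Without mOPC NPM replicate 1 it was -2.43 ± 3.64 (adjusted p = 0.661) and without replicate 2 it was -3.38 ± 5.13 (adjusted p = 0.672), a difference of like size that no longer passed the test in limma.

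The DNA position of that bin hit most often by RNAs of other chromosomes in mESC NPM was chr17:39848075, with 385 contacts. It is shown with 50 bases on each side, on the plus strand of mm10, and with 27 bases in capitals. Ribosomal RNA genes are present in many copies in the genome, of which the assembly holds few. Where tags of the other copies were placed was not tested, nor whether the DNA tags at this position were read from genomic DNA.
chr17 position: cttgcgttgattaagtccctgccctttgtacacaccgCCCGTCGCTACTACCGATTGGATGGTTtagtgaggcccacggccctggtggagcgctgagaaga

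Malat1 and the first 45 Mb of chromosome 5 took most contacts between chromosomes in mOPC NPM. Malat1 gave 57.4% and 63.5% of these in mOPC NPM and 5.54% and 4.40% in mESC NPM. Without the ribosomal RNA gene bin, which took most of them in mESC NPM, it gave 60.2% and 67.1% in mOPC NPM and 13.2% and 22.6% in mESC NPM. Malat1 was listed with 1546 bins of other chromosomes in mOPC NPM and 48 in mESC NPM, and Neat1 with 569 and 2. Only pairs that passed the authors' test are listed, so these numbers also depend on how many contacts were tested in each line. Before that test, the study reported more uniquely mapped interactions in mOPC NPM than in mESC NPM. Of the Malat1 contacts between chromosomes in mOPC NPM, 50.1% and 49.9% ended in the first 45 Mb of chromosome 5, and 0% in mESC NPM. In 1FA libraries the same share was 8.33 to 8.59% in mOPC and 0.821 to 0.957% in mESC. The boundary at 45 Mb was set after the data were seen.

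The same stretch took 50.6% and 50.3% of all mOPC NPM contacts outside the gene of the RNA, against 0.236% and 0.0913% in mESC NPM. Contacts inside the gene of the RNA ended there in 4.92% and 4.85% in mOPC NPM and 1.39% in both mESC NPM libraries. Of 242 tested transcripts of genes in it, 169 were higher and 20 lower in mOPC, beside 144 higher and 93 lower of 554 from the rest of chromosome 5 and 30.3% higher and 21.0% lower over all transcripts. The filter admitted 109 of the 242 through mOPC alone. Among those with at least 10 interactions in all 4 libraries, 67 of 127 were higher and 16 lower in the stretch, and 52 of 340 higher and 66 lower in the rest, beside 1188 higher and 1568 lower of 6524 over all. Lhfpl3, 6030443J06Rik, 5031425E22Rik, Magi2 and Slc5a6 come from it. Of all interactions the stretch held 6.99% and 8.04% in mOPC NPM and 6.80 to 7.05% in mOPC 1FA. In mESC it held 1.35% and 1.32% in NPM and 1.16 to 1.18% in 1FA. Of contacts outside the gene of the RNA it took 8.01 to 8.38% in mOPC 1FA and 1.10 to 1.13% in mESC 1FA. The number of copies of this DNA in each line was not measured here, and its part in these values was not tested.

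For contacts of RNAs with DNA outside their gene, 1451 of 1502 bins tested (96.6%) were called, 1418 (94.4%) higher and 33 (2.20%) lower in mOPC NPM. Of those called, 1404 were listed at 0 in both mESC libraries, so the count says mainly that such bins were listed in 1 line. The bins with most contacts in the first 45 Mb of chromosome 5 lie at chr5:32125001-32200000 over Fosl2 and Gm9555, with 312 and 439 contacts in the first of 3 bins and 327 and 453 in the last in mOPC NPM, none of them listed in mESC NPM. Of the 83 tested bins listed in both lines, 14 were higher and 18 lower. Without Malat1, 447 of 461 bins were called, 417 of them higher. With 1 mOPC library left out, a bin listed in mOPC alone could not pass the filter. Without replicate 1, 45 bins remained for the test, and without replicate 2, 44 remained. The balance of calls in these fits is therefore largely set by the filter.

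**Figure D5:**
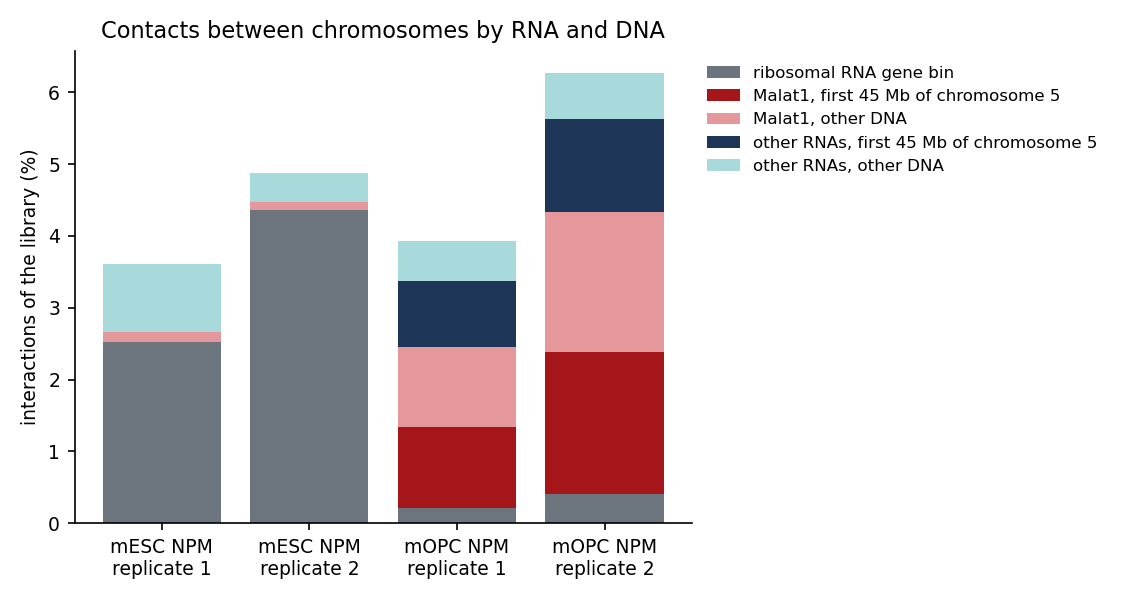
Contacts between chromosomes as a percentage of all interactions of each NPM library, split by RNA (Malat1 or others) and DNA (the ribosomal RNA gene bin on chromosome 17, the first 45 Mb of chromosome 5, other DNA). The ribosomal RNA gene bin makes up most of both mESC bars. Both mOPC bars are mostly Malat1 and the first 45 Mb of chromosome 5, which has no listed contact of this kind in mESC.

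The difference between the lines was not the same in the NPM as in the 1FA libraries. The number of transcripts listed also differed between the protocols. In mESC it was 11667 and 11657 in the NPM libraries and 14064 to 14205 in the 1FA libraries. In mOPC it was 14628 and 14621 in NPM and 11553 to 11640 in 1FA. The part of this listing in the counts that follow was not tested. The difference of the line effects, NPM against 1FA, passed for 4044 of 12213 transcripts tested (33.1%), with the NPM difference above that of 1FA in 2805 (23.0%) and below it in 1239 (10.1%), by the interaction term in limma. Without mOPC NPM replicate 1 the calls were 2626, 1960 above and 666 below, and by contacts within 1 kb alone they were 1101, 1042 above and 59 below. In 926 of the 4044 the line differences had opposite signs. The mOPC and mESC values of NPM and 1FA are side by side for the largest ones. Slit3, a guidance ligand, had 169 and 207 interactions in mESC NPM and 109 and 107 in mOPC NPM, whereas in 1FA it had 1188 to 1671 in mESC and was listed at 0 in all 3 mOPC libraries. Gli2, a transcription factor of Hedgehog signalling, had 400 and 643 against 56 and 31 in NPM, and 4613 to 5659 against 0 in 1FA. The transcripts Arhgap44, Parvb and Slc25a13 had the same pattern: listed in both lines in NPM, and in mESC alone in 1FA.

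On the other side, Cd44, an adhesion receptor, had 13 and 4 interactions in mESC NPM against 176 and 228 in mOPC NPM, and 0 against 361 to 473 in 1FA. Pde4b, the largest of the named rises among transcripts with an interaction in every NPM library, was listed at 0 in mESC 1FA. It had 4131 to 4273 interactions in mOPC 1FA. Kcnd3 (a potassium channel), Rgs7 (a regulator of G protein signalling) and Tnr also had smaller line differences in NPM. In each of the 10 the direction of the line difference was the same in both protocols, with the larger size in 1FA. For a transcript listed at 0 in all 1FA libraries of a line, the size of the interaction depends on the prior count. By contacts within 1 kb alone, Kcnd3, Pde4b, Rgs7 and Tnr were not called.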

How the data were processed

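RADICL-seq interactions of 2 mESC NPM and 2 mOPC NPM libraries were compared, with 3 mESC 1FA and 3 mOPC 1FA libraries beside them. The RNA and DNA entries of a library, and the second sequencing run of mESC NPM replicate 1, counted as 1 replicate. Per the study's methods, the authors extracted tags, removed ribosomal RNA and duplicates, aligned with BWA 0.7.15-r1140 to mm10 (per the labels, with CASAVA 1.8 for base calls), kept tags of mapping quality 37, assigned each tag by its centre to GENCODE M14, RNA tags by strand, and tested each pair of a transcript and a 25-kb bin with a one-sided binomial test, keeping an adjusted p under 0.05. Pairs below it are not listed here. The deposited files give 1 line per interaction, without counts, and their values (unit: other) are tag positions with annotations. Their condition column names the NPM libraries "Control", and each file was assigned by its label. No strand is given for DNA tags, so the planned share by DNA strand was replaced by upstream or downstream position. The files hold 32 columns, the authors' p-values included, which were not used beyond checking that replicates carry the same one. There were 0 columns of samples outside the table.

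Lines with the same tag positions, strand and RNA gene were merged into 1 interaction. Interactions were counted per RNA gene and per DNA bin. Features with at least 10 interactions in at least 2 libraries and 15 in total were tested on log2 interactions per 1000000 listed (CPM) with TMM factors computed here, a prior count of 0.5 and limma 3.58.1 in R 4.3.3 (lmFit, eBayes with trend), with Benjamini-Hochberg adjustment and a threshold of 0.05. In simulations, 200 features were changed and counts were drawn from a negative binomial distribution with an assumed dispersion. Only the mean levels and totals came from these libraries. A log2 change of 2 was recovered in 83.0% of transcripts, 58.0% of interaction terms, 63.0% of bins and 76.5% of bins for RNAs of other genes. In the same order, 2.35%, 7.94%, 0.787% and 3.16% of the calls were false. A log2 change of 1 was recovered in at most 0.5%. In the data 51.3% of transcripts were called, a far larger part than the 200 features changed, so these rates need not hold for the tests here. Shares were compared by exact permutation over libraries. Intervals and p-values cover the spread between these libraries only. Gene symbols, exons and starts are from GENCODE M21 (99.8% of identifiers matched) and sequences from RefSeq's GRCm38.p6 assembly (mm10).

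Members, gene lists and tests were chosen with earlier results of these data known. Named transcripts are the 8 called rises and falls of largest log2 change with a mean of at least 100 interactions, no overlap and an interaction in every library; the 6 called with most interactions among those listed at 0 in 1 line; the 10 most captured of each line; up to 6 of each list, with further members named for their role after their values were seen; 5 interaction terms each way; and, of bins, those with most contacts. Same-numbered replicates did not deviate together (r = -0.0125 over transcripts). Counts over features with at least 10 interactions in all 4 libraries were added after seeing the data. Alternatives were scaling, filters, prior count, voom, all 15 libraries, distance, the listing threshold after thinning, leaving out each library, and those chosen after seeing the data.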

Additional observations from a re-analysis of the deposited data

Results flagged for a closer look

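The difference between the lines itself differed between NPM and 1FA libraries in 10 named transcripts, by the interaction term in limma on the log2 scale. It was 8.99 for Slit3, 8.06 for Gli2, 7.52 for Arhgap44, 7.08 for Parvb and 6.91 for Slc25a13, all of which are listed at 0 in the 3 mOPC 1FA libraries and above 0 in both mOPC NPM libraries. It was -6.26 for Cd44, -5.43 for Kcnd3, -5.26 for Pde4b, -5.08 for Rgs7 and -4.59 for Tnr. All of the latter had few interactions in the mESC libraries of both protocols and were high in mOPC, so that no p is given. Cd44, Pde4b and Rgs7 are listed at 0 in the 3 mESC 1FA libraries, so that their sizes, like those of the first 5, depend on the prior count. The groups of 2 and 3 libraries were too small for a search for single libraries far from their group.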

How the results depend on the processing

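Scaling by CPM without TMM factors gave 5925 called transcripts in place of 5668, with 45.1% of them higher in mOPC in place of 59.1%, 4625 interaction terms in place of 4044, 13642 bins in place of 13089, and 1469 bins for RNAs of other genes in place of 1451. With at least 50 interactions in 2 libraries, 3108 transcripts, 2061 interaction terms, 3778 bins and 236 bins for RNAs of other genes were called. Of those tested, 16 of 17 pluripotency genes and 7 of 8 small nucleolar RNAs were lower, beside 1402 lower of 5021 transcripts over all. Of these pluripotency genes only Jarid2 and Rif1 had at least 50 interactions in every library. The direction in that list was thus largely set by the filter. No filter beyond 1 interaction gave 9246 transcripts. Contacts beyond 1 kb or between chromosomes gave 1176 of 2852 tested transcripts, 700 higher and 476 lower. Among those tested, 9 of 9 pluripotency genes and 17 of 19 small nucleolar RNAs were lower, and 17 of 17 progenitor and 4 of 6 myelin genes were higher. Here too a gene could pass the filter through the line where it is high, and how many did so was not counted. Contacts within 1 kb gave 1101 interaction terms and a difference of 0.26 for Tnr, opposite in sign to the -4.59 over all contacts. They gave 12 of 34 tested small nucleolar RNAs lower, beside 2172 lower of 10729 transcripts over all. Counting every line gave 16 of 44 tested small nucleolar RNAs lower, beside 2312 lower of 11775 transcripts over all. Bins for RNAs of other genes numbered 447 without Malat1 and 884 without the first 45 Mb of chromosome 5.

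Leaving out each library in turn gave 3363 to 5962 transcripts, 2626 to 4147 interaction terms, 4942 to 13674 bins, and 29 to 1470 bins for RNAs of other genes, lowest without an mOPC library. The counts were 10 to 32 pluripotency, 7 to 30 progenitor and 3 to 9 myelin genes. The filter asks for 10 interactions in 2 libraries, so that fewer features were tested: without mOPC NPM replicate 1, 8391 transcripts and 45 bins for RNAs of other genes. The lone library of a line was assumed to vary like the other line. The shares' differences ran from -4.65 to 0.457 points for exonic DNA tags, -2.22 to 0.269 for the own gene, -0.277 to 1.45 for upstream tags, -1.96 to 3.61 for introns, -1.50 to 0.151 for other noncoding RNA and -0.313 to 2.02 for trans contacts.

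The within-1-kb difference turned to -0.970 without the ribosomal RNA gene bin, -1.88 with every transcript-bin pair counted once, and -0.544 without interactions with both tags in exons. Each pair counted once also turned the 10 to 100 kb difference to 0.101, other noncoding RNA to 0.734 and introns to -2.004. Introns gave -2.30 without exon pairs. Trans contacts turned to -1.99 and the own gene to 1.86 without Malat1, and to -1.67 and 1.75 without the chromosome 5 stretch. The log2 differences of mt-Rnr1 (main value 0.45) lay from -0.44 (without mESC NPM replicate 2) to 1.41 (without mOPC NPM replicate 1) with 1 library left out, -0.23 of these without mOPC NPM replicate 2, and at -0.30 within 1 kb; those of mt-Rnr2 from -0.20 (without mESC NPM replicate 2) to 1.48 (without mESC NPM replicate 1) and at -0.016 within 1 kb; and those of Gm20388 from -0.31 (without mESC NPM replicate 2) to 0.11 (without mOPC NPM replicate 1) and at 0.030 beyond 1 kb. The cause was not tested. The settings without exon pairs and without the chromosome 5 stretch were chosen after seeing the data.

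With the replicate number as a block, 6021 transcripts, 3822 interaction terms, 14195 bins and 1484 bins for RNAs of other genes were called, and 39 small nucleolar RNAs were lower in place of 29. The numbers only name the samples: the deviations of same-numbered libraries correlated at -0.0125 over transcripts.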

Other observations

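Calls were uneven over the genome. Of 582 tested transcripts of chromosome 8, 254 were lower and 70 higher in mOPC NPM, beside 30.3% higher and 21.0% lower over all transcripts, and of those with at least 10 interactions in all 4 libraries 176 of 377 were lower and 26 higher, beside 1568 lower and 1188 higher of 6524 over all. Snord13, Col4a1, D030068K23Rik and Rbpms come from this chromosome. The opposite balance was seen on chromosome 10, with 288 of 619 higher and 57 lower, and on chromosome 1, with 343 of 761 higher and 92 lower. With at least 10 interactions in all 4 libraries, 109 of 335 were higher and 38 lower on chromosome 10, and 123 of 406 higher and 64 lower on chromosome 1.

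By gene type, 137 of 240 tested lincRNAs were higher and 37 lower in mOPC, and 111 of 178 antisense RNAs were higher and 24 lower, beside 30.3% higher and 21.0% lower over all transcripts. Of these, 154 lincRNAs and 131 antisense RNAs passed the filter through mOPC alone. With at least 10 interactions in all 4 libraries, 16 of 48 lincRNAs were higher and 6 lower, and 6 of 22 antisense RNAs were higher and 6 lower, beside 1188 higher and 1568 lower of 6524 over all. Protein-coding transcripts had 2906 higher and 2181 lower of 10212 tested. The RNA tags are assigned by strand. The ribosomal RNAs of mitochondria, mt-Rnr1 (6178 and 1875 CPM in mESC NPM, 2064 and 6229 in mOPC NPM) and mt-Rnr2, were among the most captured transcripts of both lines, and their replicates differed more than the lines did.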
